A study of Mus musculus with 4 samples.

Results

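A set of 10 interferon-inducible GTPase genes was followed in RNA from γδ T cells of the mouse lung, 5 of the immunity-related GTPase (IRG) family and 5 of the guanylate-binding protein (GBP) family. They were taken by gene symbol, and all 10 stood in the count table of 22865 genes. The set was selected on its read counts in these same libraries, whose difference between genotypes was known, so that contrast is given as a description without a test. The tested cells came from mice that lack Aire (Aire-/-), and the cells they were set against from mice with Aire intact (Aire+/+), with 2 libraries each. Aire is the transcriptional regulator with which thymic epithelial cells display proteins of other tissues to developing T cells. All mice were 10-week-old C57Bl/6 females. The sort kept CD45+ TCRgd+ cells that were TCRb- and CD27- and bore none of Vg1, 2, 4 and 5, a population the submitters call Tgd17 for its interleukin-17 production. Each library was made from 500 cells with Smart-Seq2, which copies full-length RNA of very small samples. The promoter or allele behind the Aire deficiency is not given in the sources used here, and the labels do not say whether the libraries of a genotype came from separate mice. The p-values therefore measure how much these libraries vary, and that variation may be technical.

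Interferons bind receptors that act through Janus kinases and STAT factors. Type II interferon, interferon-γ, acts mainly at promoter sequences called GAS elements, and type I interferons mainly at interferon-stimulated response elements. The IRG and GBP genes of the mouse are among the most strongly induced targets of interferon-γ. Their products are large GTPases that gather on the vacuoles of intracellular microbes such as Toxoplasma and Chlamydia and help to disrupt them.

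The promoters are shown because interferon acts on these genes there, and their letters were not used in choosing the genes. Since the families are known as interferon-inducible, the motif counts are a description. RefSeq promoter windows (250 bases before to 50 after an annotated start, GRCm38.p6) matched 7 of the 10 genes, while Iigp1, Gbp4 and Gbp6 had no entry. The interferon-stimulated response element was searched as GAAA, any 2 bases and GAAA, and the GAS element as TTC, any 3 bases and GAA, each on both strands. Of the 7 genes, 6 held the response element, against 3.44% of all 32851 windows, and 3 held the GAS element, against 8.30% of all windows. The 4 CD3 chain genes, which encode the signalling subunits of the T cell receptor, had windows with no response element, and 3 of the 15 interferon receptor and relay genes with a window held one. The stretches below run from 115 bases before to 5 bases after the start, 5′ to 3′ in the gene's direction, with every match in capitals.
Ifi47 (chr11:49076472-49076591, + strand): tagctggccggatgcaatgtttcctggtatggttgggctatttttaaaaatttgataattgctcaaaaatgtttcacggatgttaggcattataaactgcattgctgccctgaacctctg
Irgm1 (chr11:48871416-48871535, - strand): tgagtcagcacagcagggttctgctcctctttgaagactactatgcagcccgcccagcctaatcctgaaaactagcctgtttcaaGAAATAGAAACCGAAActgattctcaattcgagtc
Irgm2 (chr11:58214862-58214981, + strand): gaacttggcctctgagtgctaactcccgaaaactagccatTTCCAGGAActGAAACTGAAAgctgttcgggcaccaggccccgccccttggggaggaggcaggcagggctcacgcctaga
Igtp (chr11:58199441-58199560, + strand): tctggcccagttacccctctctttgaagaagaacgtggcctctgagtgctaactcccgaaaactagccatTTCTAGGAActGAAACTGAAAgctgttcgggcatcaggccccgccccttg
Gbp2 (chr3:142620548-142620667, + strand): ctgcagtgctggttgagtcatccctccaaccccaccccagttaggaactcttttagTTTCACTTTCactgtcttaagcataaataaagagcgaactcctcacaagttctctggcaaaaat
Gbp3 (chr3:142559929-142560048, + strand): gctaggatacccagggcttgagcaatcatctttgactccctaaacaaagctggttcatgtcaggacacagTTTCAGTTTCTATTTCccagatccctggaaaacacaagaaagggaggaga
Gbp7 (chr3:142530221-142530340, + strand): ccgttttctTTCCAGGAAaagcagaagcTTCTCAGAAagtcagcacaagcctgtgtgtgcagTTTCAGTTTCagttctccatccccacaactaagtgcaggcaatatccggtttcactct
Overlapping pairs of response elements shared a GAAA block in Irgm1, beginning 30 and 24 bases before the start, and a TTTC block in Gbp3, beginning 45 and 39 bases before it. Those of Igtp and Irgm2 read the same, GAAACTGAAA, and stood 34 and 64 bases before their RefSeq starts. The stretch of Irgm2, from 58214862, lies inside the span that the GENCODE annotation gives this gene, 58199618 to 58222782. The end of its window was not found in the GENCODE transcripts of Irgm2, so its start is uncertain. In both genes a GAS element lay just upstream, TTCTAGGAA in Igtp and TTCCAGGAA in Irgm2. The element of Gbp2 began 59 bases before the start and that of Gbp7 53 bases before it, with GAS elements in Gbp7 at 106 and 87 bases. A second start of Gbp3 held neither motif. The end of that window was not found in the GENCODE transcripts of Gbp3, so this second start is uncertain too. Ifi47 held neither in its one window, which says only that these letters are not there. A match is a description of the letters and does not show that a factor binds.

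**Figure D1:**
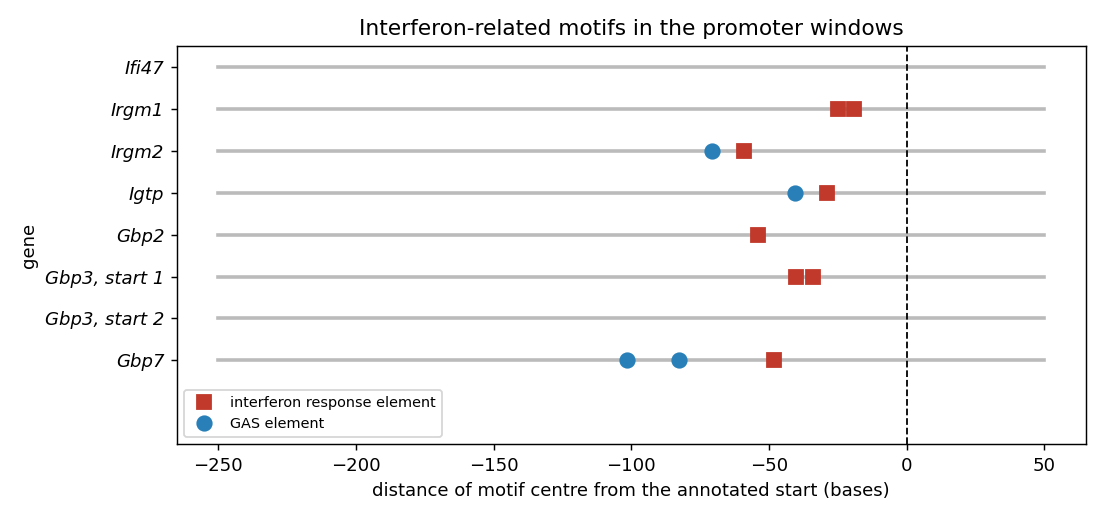
Promoter windows of the 7 genes with a RefSeq entry, 1 row per annotated start, drawn from 250 bases before to 50 bases after the start (dashed line); squares mark the interferon response element and circles the GAS element at the distance of their centres in bases. The response elements of the 6 genes that hold one all begin within 64 bases of the start.

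Depth was 1144060 and 1106891 counts in the Aire-/- libraries, against 1265239 and 1153344 in the Aire+/+ libraries. All 13 markers of interleukin-17-producing γδ T cells were detected, with a sum of 8465 and 9853 CPM (read counts scaled to library size, with TMM factors) in the Aire-/- libraries, against 5880 and 8341 CPM in the Aire+/+ libraries. Transcripts of other cell types were detected too. The 10 B cell markers, of cells that the TCRgd+ gate would leave out, summed to 2815 and 2122 CPM in the Aire-/- libraries, against 4292 and 2725 CPM in the Aire+/+ libraries, and their source was not tested. Across all genes edgeR's quasi-likelihood test called 0 of 9783 tested genes higher in Aire-/- libraries and 2 lower at an adjusted p under 0.05, and DESeq2 and limma-voom called 3 and 1 in all. Those called by edgeR were Igj and Cpm. Without adjustment, 274 genes were higher and 271 lower at p under 0.05. Aire+/+ replicate 1 stood apart by the highest B cell marker and the lowest CD3 levels, and Aire-/- replicate 2 by transcripts given below. Where leaving out a library moved a GTPase's log2 fold change by more than 1.5 times, the value is given with that gene.

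The GTPases were expressed at low to moderate levels in both genotypes, and 9 of the 10 passed the filter on low counts. Their summed level was 507 and 683 CPM in the Aire-/- libraries, against 303 and 353 CPM in the Aire+/+ libraries. Fitted log2 fold changes (Aire-/- minus Aire+/+) lay above 0 for the 9 that passed, with a median of 0.92, where the median over all tested genes was 0.01 and 50.9% of genes lay above 0. In 8 genes both Aire-/- libraries lay above both Aire+/+ libraries, a pattern that 17.1% of all tested genes showed. None of the 9 was among the genes called, the background being 0.0% called higher and 0.0204% called in either direction. Since the genes were chosen with this contrast known, nothing is read from these counts. In bulk samples, fewer cells of a type and less RNA per cell cannot be told apart.

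**Figure D2:**
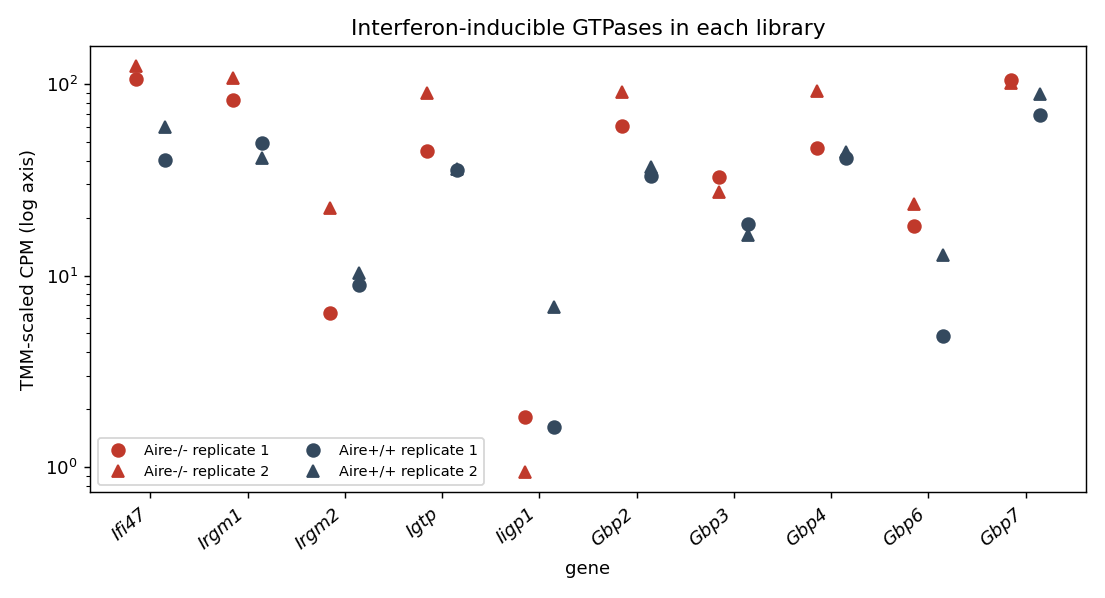
Level of each GTPase gene in TMM-scaled CPM on a log axis, with Aire-/- libraries in red left of Aire+/+ libraries in dark blue, and circles and triangles for replicates 1 and 2. Both Aire-/- libraries lie above both Aire+/+ libraries in 8 genes, as in 17.1% of all tested genes. Igtp and Gbp4, which are among the 8, and Irgm2, where the groups overlap, are high mainly in Aire-/- replicate 2.

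Among the IRG genes, Ifi47 encodes an effector, one of the GTPases that load onto microbial vacuoles. It had 117 and 132 counts in the Aire-/- libraries, against 50 and 70 counts in the Aire+/+ libraries. It averaged 116 ± 12.4 CPM in Aire-/- cells, against 50.1 ± 13.8 CPM in Aire+/+ cells (SD, 2 libraries per genotype), and the log2 fold change was 1.21 (SE 0.28). Both Aire-/- libraries were high and both Aire+/+ libraries low, with no overlap. Ifi47 lies on chromosome 11 (49076587 to 49096974, GRCm38), where exons of Olfr56 on the same strand and of Gm12188 on the opposite strand overlap it. Iigp1, the other effector, on chromosome 18, had 2 and 1 counts in the Aire-/- libraries, against 2 and 8 counts in the Aire+/+ libraries. It did not pass the filter, and at this depth no difference was detectable.

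The remaining IRG genes encode regulators, which in mouse cells keep the effector GTPases from acting on the cell's own membranes. Irgm1 (chromosome 11, 48861968 to 48871683) had 91 and 114 counts in the Aire-/- libraries, against 61 and 48 counts in the Aire+/+ libraries. It averaged 95.3 ± 17.2 CPM in Aire-/- cells, against 45.2 ± 5.82 CPM in Aire+/+ cells (SD, 2 libraries per genotype), and the log2 fold change was 1.07 (SE 0.28). The groups did not overlap, and Irgm1 had no annotated exon overlap and shared 0.0% of its transcript's 50-base words with another gene. Igtp, also called Irgm3 (chromosome 11, 58199556 to 58207591), had 49 and 96 counts in the Aire-/- libraries, against 44 and 42 counts in the Aire+/+ libraries. Aire-/- replicate 2 alone was high, while Aire-/- replicate 1, at 44.8 CPM, lay near the Aire+/+ libraries at 35.6 and 35.9 CPM. The log2 fold change of 0.92 (SE 0.37) was 0.32 without Aire-/- replicate 2. Irgm2 (chromosome 11, 58199618 to 58222782) had 7 and 24 counts in the Aire-/- libraries, against 11 and 12 counts in the Aire+/+ libraries. Here Aire-/- replicate 1 was the lowest and Aire-/- replicate 2 the highest of the 4, so the groups overlapped. Its log2 fold change was 0.59 (SE 0.66), and it turned to -0.58 without Aire-/- replicate 2 and was 1.24 without Aire-/- replicate 1. Igtp and Irgm2 are annotated on the same strand with overlapping exons and share 12.3% and 7.36% of their 50-base words with other genes, and the assignment of reads between them is uncertain.

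Among the GBP genes, Gbp2, Gbp3 and Gbp7 lie in a cluster on chromosome 3 whose loss in mice impairs caspase-11 activation by bacteria. Gbp2, which loads onto the Toxoplasma vacuole (142620602 to 142638008), had 66 and 97 counts in the Aire-/- libraries, against 41 and 43 counts in the Aire+/+ libraries. It averaged 75.9 ± 22.0 CPM in Aire-/- cells, against 35.0 ± 2.59 CPM in Aire+/+ cells (SD, 2 libraries per genotype), and the log2 fold change was 1.12 (SE 0.32). Both Aire-/- libraries were high, and the value was 0.78 without Aire-/- replicate 2. Gbp3 (142560026 to 142573209) had 36 and 29 counts in the Aire-/- libraries, against 23 and 19 counts in the Aire+/+ libraries (log2 fold change 0.79, SE 0.41). Gbp7, which in mouse macrophages aids assembly of the microbicidal oxidase (142530342 to 142550149), had 116 and 108 counts in the Aire-/- libraries, against 86 and 104 counts in the Aire+/+ libraries. Its log2 fold change of 0.39 (SE 0.25) was the smallest of the 9, with the nearest libraries of the groups being Aire-/- replicate 2, at 102 CPM, and Aire+/+ replicate 2, at 89.0 CPM. It was 0.22 without Aire+/+ replicate 1 and 0.58 without Aire+/+ replicate 2.

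Gbp4 and Gbp6 belong to the second cluster, on chromosome 5. Gbp4 (105115767 to 105139586) had 51 and 98 counts in the Aire-/- libraries, against 51 and 52 counts in the Aire+/+ libraries. As for Igtp, only Aire-/- replicate 2 was high, and the log2 fold change of 0.69 (SE 0.35) was 0.12 without it and 1.11 without Aire-/- replicate 1. Gbp6 (105270702 to 105293698) had 20 and 25 counts in the Aire-/- libraries, against 6 and 15 counts in the Aire+/+ libraries (log2 fold change 1.24, SE 0.58). That value was 0.69 without Aire+/+ replicate 1 and 2.08 without Aire+/+ replicate 2. Gbp6 shared 59.7% of its transcript's 50-base words with other genes, chiefly Gm43302 and Gbp10, and its counts are uncertain for that reason. Gbp4 overlaps exons of Gbp8 and Gbp9 and shared 12.8%.

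With Aire-/- replicate 2 left out, the log2 fold changes of Ifi47, Irgm1, Gbp3 and Gbp6 were 1.09, 0.87, 0.91 and 1.04. The median over the tested GTPases lay between 0.78 and 1.25 whichever library was left out. The lone library of a genotype is then assumed to vary like the other pair. Aire-/- replicate 2 held the highest level of 7 of the 10 genes and Aire+/+ replicate 1 the lowest of 6.

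**Figure D3:**
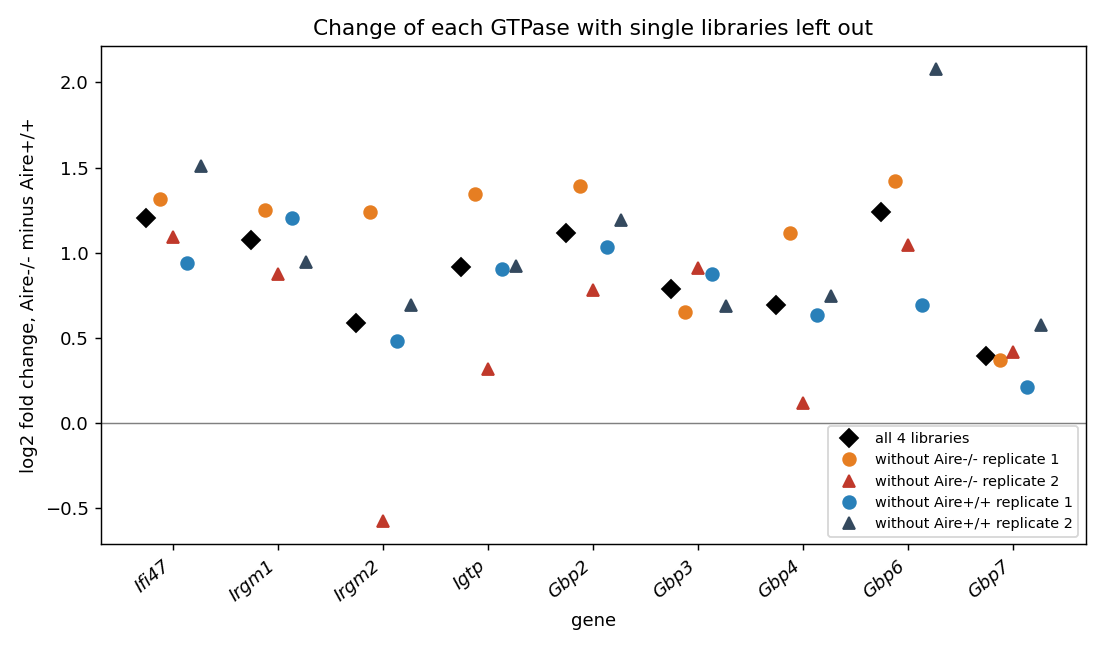
Log2 fold change (Aire-/- minus Aire+/+) of the 9 tested GTPases with all 4 libraries (diamonds) and with each library left out. Without Aire-/- replicate 2 (red triangles) Igtp is at 0.32, Gbp4 at 0.12 and Irgm2 at -0.58, while Ifi47 stays at 1.09.

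Levels of different genes were compared per kilobase of the longest annotated transcript. On that scale Ifi47 was the highest in every library, with a level of 65.2 ± 7.02 CPM per kb in Aire-/- cells, against 28.3 ± 7.77 CPM per kb in Aire+/+ cells (SD, 2 libraries per genotype). Igtp, Gbp2 and Irgm1 followed, at 33.5 ± 16.0, 30.2 ± 8.76 and 24.9 ± 4.50 CPM per kb in Aire-/- libraries, and they did not differ beyond their spread. In Aire+/+ libraries the same genes stood at 17.7 ± 0.13, 13.9 ± 1.03 and 11.8 ± 1.52 CPM per kb, with Gbp7 at 14.1 ± 2.45 among them. Gbp6 and Irgm2 were low, at 4.93 ± 0.88 and 4.11 ± 3.25 CPM per kb in Aire-/- and 2.08 ± 1.33 and 2.71 ± 0.28 CPM per kb in Aire+/+ libraries, and Iigp1 was the lowest in every library. The IRG genes made up 47.9% and 50.7% of the summed GTPase counts in the Aire-/- libraries, against 44.8% and 43.6% in the Aire+/+ libraries. The Wilson 95% intervals, 43.8 to 52.1% and 47.1 to 54.3% in the Aire-/- libraries against 39.8 to 49.9% and 38.9 to 48.4% in the Aire+/+ libraries, overlapped and cover counting error only. Gbp7 took 14.9% (12.5 to 17.7%) of these counts in Aire-/- replicate 2 and 25.2% (21.2 to 29.6%) in Aire+/+ replicate 2, while the other 2 libraries lay between.

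The CD3 chains were set beside the GTPases as a measure of T cell RNA in each library. Their summed counts were 1522 and 1595 in the Aire-/- libraries, against 1242 and 1791 in the Aire+/+ libraries, so the groups overlapped. The log2 fold changes of the chains were 0.47 (Cd3e), 0.31 (Cd247), 0.19 (Cd3d) and 0.05 (Cd3g), with adjusted p from 0.93 to 0.99 by edgeR. Per 100 CD3 counts, the GTPases summed to 36.5 and 45.4 counts in the Aire-/- libraries, against 30.2 and 23.1 counts in the Aire+/+ libraries. The groups did not overlap, and the mean log2 difference was 0.62. Leaving out Aire+/+ replicate 2 gave 0.43, and leaving out Aire-/- replicate 2 gave 0.47. Leaving out Aire+/+ replicate 1 gave 0.82. With Cd3e alone as the denominator it was 0.37.

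Gene by gene, Ifi47 had 7.69 and 8.28 counts per 100 CD3 counts in the Aire-/- libraries, against 4.03 and 3.91 in the Aire+/+ libraries. Irgm1 had 5.98 and 7.15 in the Aire-/- libraries, against 4.91 and 2.68 in the Aire+/+ libraries. Gbp2 had 4.34 and 6.08 in the Aire-/- libraries, against 3.30 and 2.40 in the Aire+/+ libraries, and Gbp6 had 1.31 and 1.57 in the Aire-/- libraries, against 0.48 and 0.84 in the Aire+/+ libraries. In these 4 genes both Aire-/- libraries were above both Aire+/+ libraries, a pattern found in 5.79% of all tested genes on this scale. For Igtp, Irgm2, Gbp3, Gbp4 and Gbp7 the groups overlapped once set against CD3. Gbp7 had 7.62 and 6.77 in the Aire-/- libraries, against 6.92 and 5.81 in the Aire+/+ libraries. When the CD3 sum replaced TMM as the scaling factor in the fit, the 9 log2 fold changes ran from 0.18 (Gbp7) to 1.09 (Gbp6) with a median of 0.66, while the median of all genes moved to -0.24. That scaling moved nearly all genes down together, and 26.6% of all tested genes lay above 0 on it.

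**Figure D4:**
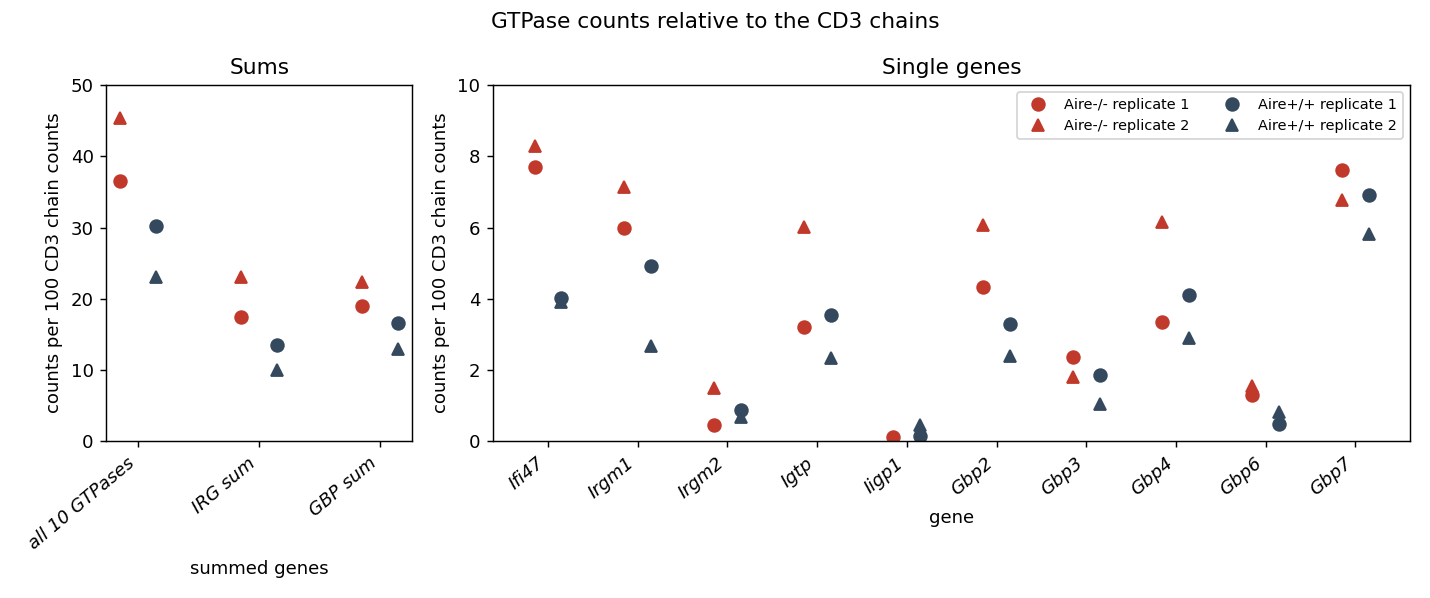
Counts of the summed GTPases (left) and of each gene (right) per 100 counts of the 4 CD3 chains, Aire-/- libraries in red left of Aire+/+ libraries in dark blue. The 2 Aire-/- sums, 36.5 and 45.4, lie above the Aire+/+ sums of 30.2 and 23.1, and Ifi47, Irgm1, Gbp2 and Gbp6 are higher in both Aire-/- libraries while the other GTPases except Iigp1 overlap.

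Markers of the sorted cells and of others differed alongside. All 13 γδ T17 markers had log2 fold changes above 0, with a median of 0.38, where 50.9% of all genes lay above 0. None was called by edgeR, DESeq2 or limma-voom. At an unadjusted p under 0.05 by edgeR 7 were higher and 0 lower, where 2.8% and 2.77% of all genes were. In 8 of them both Aire-/- libraries lay above both Aire+/+ libraries in CPM, as in 17.1% of all tested genes. The γδ T17 marker sum per 100 CD3 counts was 609 and 655 in the Aire-/- libraries, against 586 and 544 in the Aire+/+ libraries. All 10 B cell markers had log2 fold changes below 0, with a median of -0.46, where 4802 of 9783 tested genes lay below 0. None was called by edgeR, DESeq2 or limma-voom. At an unadjusted p under 0.05 by edgeR 3 were lower and 0 higher, where 2.77% and 2.8% of all genes were. The B cell marker sum per 100 CD3 counts was 202 and 141 in the Aire-/- libraries, against 428 and 178 in the Aire+/+ libraries. Aire+/+ replicate 1, with the highest B cell marker sum, and Aire-/- replicate 2, with the lowest, had the lowest and the highest GTPase sums in CPM. Per 100 CD3 counts Aire+/+ replicate 1 was not the lowest. Of the 14 macrophage and monocyte markers 13 were in the table, with a sum of 1218 and 1496 CPM in the Aire-/- libraries, against 1540 and 1252 CPM in the Aire+/+ libraries. Ccr2, which T cells also express, gave 828 and 1057 CPM of this in the Aire-/- libraries, against 638 and 776 CPM in the Aire+/+ libraries. Without Ccr2 the sum was 390.0 and 438 CPM in the Aire-/- libraries, against 903 and 476 CPM in the Aire+/+ libraries. Of the 7 tested, 6 lay below 0, with a median log2 fold change of -0.95. At an unadjusted p under 0.05 by edgeR 4 were lower and 1 higher, where 2.77% and 2.8% of all genes were. Among the 4 was Cd14, with 0 and 0 counts in the Aire-/- libraries, against 32 and 11 counts in the Aire+/+ libraries. None of the 7 passed the adjusted threshold in edgeR, DESeq2 or limma-voom. The 6 plasma cell markers summed to 333 and 438 CPM in the Aire-/- libraries, against 1712 and 1125 CPM in the Aire+/+ libraries. Igj alone made that gap, with 0.0 and 3.77 CPM in the Aire-/- libraries, against 1353 and 708 CPM in the Aire+/+ libraries. Without Igj the sum was 333 and 435 CPM in the Aire-/- libraries, against 360 and 418 CPM in the Aire+/+ libraries. The 7 αβ T cell markers summed to 957 and 683 CPM in the Aire-/- libraries, against 1589 and 864 CPM in the Aire+/+ libraries. Ccr7 gave 670 and 454 CPM of this in the Aire-/- libraries, against 1234 and 642 CPM in the Aire+/+ libraries. Without Ccr7 the sum was 288 and 228 CPM in the Aire-/- libraries, against 355 and 222 CPM in the Aire+/+ libraries, so the groups overlapped. The 11 natural killer and cytotoxic markers summed to 272 and 424 CPM in the Aire-/- libraries, against 683 and 504 CPM in the Aire+/+ libraries. Ccl5 gave 116 and 93.4 CPM of this in the Aire-/- libraries, against 219 and 180 CPM in the Aire+/+ libraries. Without Ccl5 the sum was 156 and 331 CPM in the Aire-/- libraries, against 464 and 324 CPM in the Aire+/+ libraries, so the groups overlapped. Of the 7 natural killer and cytotoxic markers tested, 6 lay below 0 (median -0.94). At an unadjusted p under 0.05 by edgeR 4 of them were lower and 0 higher, and none was called. The 8 dendritic cell markers summed to 73.1 and 48.1 CPM in the Aire-/- libraries, against 27.5 and 42.8 CPM in the Aire+/+ libraries. No marker of these lists in the table was at 0 in all libraries. Their part in the GTPase result was not tested.

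Of the other IRG and GBP family genes 22 of 26 were in the table and 10 were tested. None was called by edgeR, DESeq2 or limma-voom. Without adjustment 2 were higher and 0 lower at p under 0.05, where 2.80% of all genes were higher and 2.77% lower. Log2 fold changes lay above 0 for 7 of the 10, with a median of 0.34. The smallest p belonged to 9930111J21Rik1, near Irgm1 on chromosome 11, with 126 and 86 counts in the Aire-/- libraries, against 69 and 57 counts in the Aire+/+ libraries (log2 fold change 0.91, adjusted p = 0.83, edgeR). It shares 79.8% of its 50-base words with relatives. Gbp8 had 63 and 52 counts in the Aire-/- libraries, against 14 and 44 counts in the Aire+/+ libraries (log2 fold change 1.13, adjusted p = 0.89, edgeR). Gbp9 had 54 and 48 counts in the Aire-/- libraries, against 25 and 49 counts in the Aire+/+ libraries, at a log2 fold change of 0.61. Gbp5 had 13 and 10 counts in the Aire-/- libraries, against 5 and 9 counts in the Aire+/+ libraries, at 0.86. For Gbp9 and Gbp5, as for Gbp8 and 9930111J21Rik1, both Aire-/- libraries lay above both Aire+/+ libraries in CPM, a pattern that 17.1% of all tested genes showed. Gm12250, Gm5431, Gm12185, F830016B08Rik, Irgq and Gm4759 overlapped between genotypes, at log2 fold changes from -0.20 to 0.41. Gbp2b, Gbp10, Gbp11 and Gm4951 had 0 to 9 counts per library and were not tested.

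The interferon ligands were close to absent. Ifng, which encodes interferon-γ, had 2 and 1 counts in the Aire-/- libraries, against 2 and 3 counts in the Aire+/+ libraries. Ifnb1, Ifna1, Ifna2, Ifnl2 and Ifnl3 had 0 counts in all 4 libraries, which allows up to 3 counts per library, and Ifna4 and Ifnk had at most 1. These counts do not show which cells, if any, made interferon in the tissue.

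Of the 17 receptor and relay genes, all tested, none was called by edgeR, DESeq2 or limma-voom. At an unadjusted p under 0.05 by edgeR 3 were higher and 0 lower, where 2.8% and 2.77% of all genes were. Ifngr1, the ligand-binding chain of the interferon-γ receptor, had 1530 and 2201 counts in the Aire-/- libraries, against 932 and 1309 counts in the Aire+/+ libraries (log2 fold change 0.89, SE 0.22, adjusted p = 0.67, edgeR). Its partner chain Ifngr2 had 225 and 307 counts in the Aire-/- libraries, against 212 and 310 counts in the Aire+/+ libraries (0.18, adjusted p = 0.98, edgeR). Irf1, an interferon-induced factor that activates GBP genes, had 188 and 221 counts in the Aire-/- libraries, against 175 and 134 counts in the Aire+/+ libraries (0.57, SE 0.23, adjusted p = 0.89, edgeR). For Ifngr1 and Irf1 the CPM of both Aire-/- libraries lay above both Aire+/+ libraries, as in 17.1% of all tested genes. Socs1, which brakes this relay, went the other way, with 10 and 14 counts in the Aire-/- libraries, against 20 and 25 counts in the Aire+/+ libraries (-0.74, adjusted p = 0.94, edgeR). On TMM scaling 12 of the 17 lay above 0 (median 0.18), where 50.9% of all genes did. With the CD3 sum as the scaling factor 5 of the 17 did (median -0.05), near the 26.6% of all genes on that scale.

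Of 30 interferon-γ targets outside the GTPases 25 were tested. None was called by edgeR, DESeq2 or limma-voom. At an unadjusted p under 0.05 by edgeR 5 were higher and 0 lower, where 2.8% and 2.77% of all genes were. The median log2 fold change was 0.26. On TMM scaling 22 of 25 lay above 0, where 50.9% of all genes did. With the CD3 sum as the scaling factor 15 did, where 26.6% of all genes did. Serpina3g, a serine protease inhibitor of activated lymphocytes, had 68 and 54 counts in the Aire-/- libraries, against 27 and 29 counts in the Aire+/+ libraries (log2 fold change 1.27, adjusted p = 0.70, edgeR). Nlrc5, the transactivator of class I genes, had 116 and 167 counts in the Aire-/- libraries, against 84 and 100 counts in the Aire+/+ libraries (0.78), and Parp9 had 93 and 106 counts in the Aire-/- libraries, against 68 and 72 counts in the Aire+/+ libraries (0.67), both at an adjusted p of 0.89 by edgeR. Cxcl10, a chemokine that interferon-γ induces, had 12 and 93 counts in the Aire-/- libraries, against 12 and 10 counts in the Aire+/+ libraries (2.41, adjusted p = 0.83, edgeR). It was high in Aire-/- replicate 2 alone, the library that was also highest for Igtp, Irgm2 and Gbp4.

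Of 30 antiviral genes of the type I response 22 were tested, and none was called by edgeR, DESeq2 or limma-voom. At an unadjusted p under 0.05 by edgeR 1 was higher and 0 lower, where 2.8% and 2.77% of all genes were. The median log2 fold change was 0.18. On TMM scaling 16 of 22 lay above 0, and with the CD3 sum as the scaling factor 10 did, where 50.9% and 26.6% of all genes lay above 0 on these scales. Ifi203, a nucleic acid sensor family member, had 272 and 192 counts in the Aire-/- libraries, against 174 and 166 counts in the Aire+/+ libraries (0.60, adjusted p = 0.89, edgeR). Rtp4 (1.13) and the RNA sensor Ifih1 (1.06) lay above 0 and Oasl1 (-0.70) below, with adjusted p from 0.91 to 0.94 by edgeR. Whether the GTPases differed more than this list was not tested.

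Genes listed for autophagy conjugation or GTPase loading, which help to place IRG and GBP proteins on vacuoles, lay above 0 for 6 of 11 tested (median 0.02). None was called by edgeR, DESeq2 or limma-voom. At an unadjusted p under 0.05 by edgeR 1 was higher and 0 lower, where 2.8% and 2.77% of all genes were. Atg5, part of the conjugating complex, had 102 and 97 counts in the Aire-/- libraries, against 65 and 64 counts in the Aire+/+ libraries (0.78, SE 0.26, adjusted p = 0.85, edgeR). Sqstm1 (0.32), Gabarapl2 (0.23) and Gabarap (-0.18) had adjusted p from 0.96 to 0.98 by edgeR. Inflammasome genes lay above 0 for 3 of 6 tested genes (median 0.02), and none was called by edgeR, DESeq2 or limma-voom. At an unadjusted p under 0.05 by edgeR 0 were higher and 1 lower, beside those same 2.8% and 2.77% of all genes. Pycard, the inflammasome adaptor, had 115 and 98 counts in the Aire-/- libraries, against 177 and 161 counts in the Aire+/+ libraries (-0.51, SE 0.23, adjusted p = 0.89, edgeR). Gsdmd (0.55), Aim2 (-0.44) and Il1b (1.14) had adjusted p from 0.91 to 0.96 by edgeR. Il1b had 0 and 70 counts in the Aire-/- libraries, against 27 and 9 counts in the Aire+/+ libraries.

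**Figure D5:**
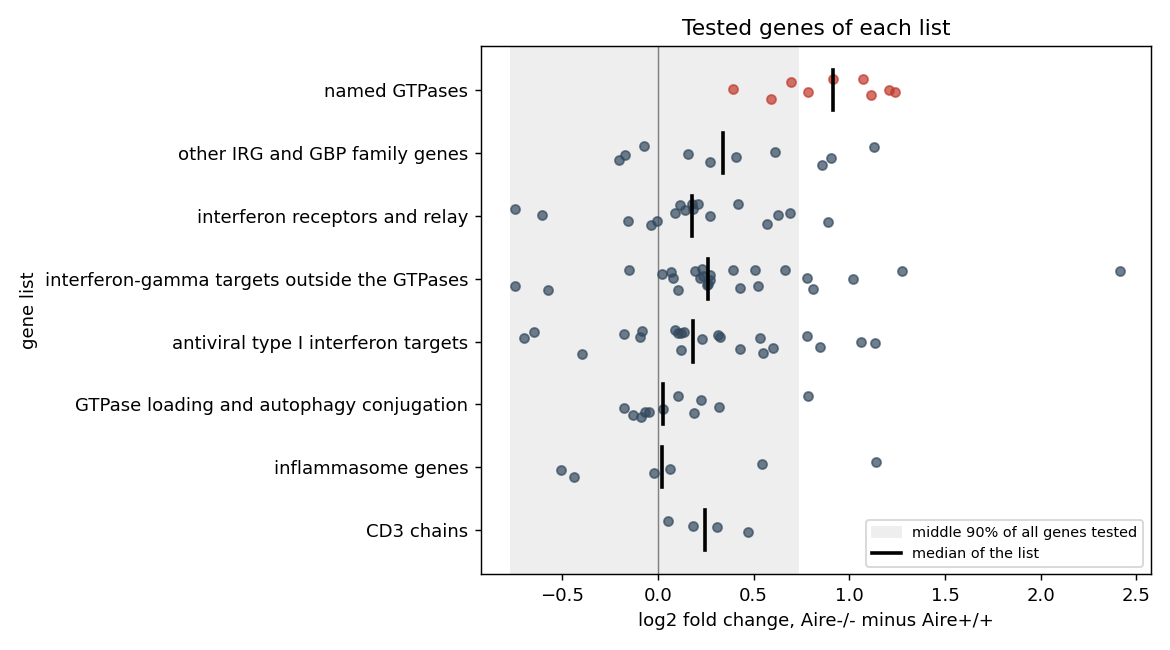
Log2 fold change (Aire-/- minus Aire+/+) of each tested gene by list, with black bars at list medians and grey shading over the middle 90% of all tested genes. The named GTPases, chosen with these values known, have a median of 0.92, against 0.34 for the other family genes, 0.26 for the other interferon-γ targets and 0.25 for the CD3 chains.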

How the data were processed

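RNA from 500 sorted lung γδ T cells per library was made into Smart-Seq2 libraries, per the labels' protocols. The deposited values are raw read counts, whole numbers for each gene symbol, in 1 table. TopHat2 2.0.10, Cufflinks 2.2.1 and mm10 are named without role, per the submitters' processing notes. The sources used here do not give the counting tool, annotation, strandedness or treatment of shared and duplicate reads. Without molecular identifiers reads are not independent molecules.

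Groups came from the titles. In R 4.3.3, edgeR 4.0.16 fitted genotype by quasi-likelihood after TMM scaling and filterByExpr, which asked for a count of 10 and a total of 15. Benjamini-Hochberg adjustment ran over 9783 genes, and an adjusted p under 0.05 was called. Each SE is the size of the log2 fold change over the square root of its F value. Steps were tested on simulated data. An exact permutation test of 2 against 2 libraries cannot go below p = 0.333 and was not used.

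The members, lists and tests were chosen with earlier results of these data known. Named are the 10 members, the other family genes, up to 4 genes by smallest p in each other list, the interferons, both interferon-γ receptor chains, Irf1 and the CD3 chains. A gene that this rule names is not reported here. Positions, transcript lengths and shared 50-base words came from GENCODE M21 (GRCm38, which mm10 names), promoters from RefSeq. Alternatives were DESeq2 1.42.0 (size factors, Wald test), upper-quartile factors, the CD3 sum, Rn45s left out, limma-voom 3.58.1, no or a stricter filter (10 CPM in 2 libraries), the replicate block and leaving out each library. The γδ T17 marker sum as a denominator was added after seeing the data. Python 3.11.15 made the tables (scipy 1.17.1, pandas 2.3.3, numpy 2.4.6) and figures (matplotlib 3.10.9).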

Additional observations from a re-analysis of the deposited data

How the results depend on the processing

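The median log2 fold change of the tested GTPases kept its direction and moved by less than the replicate SD under the 13 alternatives run. Of 117 single-gene values, 107 moved by less than the replicate SD and 9 moved by more and kept their sign. The remaining 1 turned, Irgm2 at -0.58 without Aire-/- replicate 2 (1.24 without Aire-/- replicate 1). For Irgm2 the replicate SD of 0.92 exceeded the log2 fold change of 0.59, so 1.24 counted as within it. Fits that kept all 4 libraries used the same counts, so small moves there were likely beforehand. The GTPases per CD3 differed by 0.37 with Cd3e alone, 0.46 with the γδ T17 marker sum, and 0.43 to 0.82 with single libraries left out.

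Over all genes, calls higher and lower numbered 21 and 26 without a filter, where Ifi47 was the 1 GTPase called, and 5 to 21 and 6 to 42 with single libraries left out, where 0 to 1 GTPase was called (Ifi47, without Aire+/+ replicate 2). Genes called lower were 7 with CD3 scaling and 1 by limma-voom. In the lists, 1 relay gene (Ifngr1) and 1 interferon-γ target (Cxcl10) were called without a filter. Fits with a single library left out hold 1 library of a genotype, and their calls are not given here. CD3 scaling, which lowers nearly all genes together and leaves 26.6% of them above 0, left 5 relay, 10 antiviral and 3 autophagy genes above 0. No filter put 13 other family genes above 0 of 19 tested, beside 7 of 10 with the filter, as more of them were tested. Of the CD3 chains 2 to 4 lay above 0 with single libraries left out. A response element with a 3-base gap was found in 0 of the 7 promoters. The cause of the other differences was not tested.

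Same-numbered libraries deviated with a correlation of -0.0781 across genes. With only 2 pairs this cannot tell whether same-numbered libraries were handled together, and the labels give only a running number. With the replicate block 2 genes were called higher and 4 lower, among them 1 relay gene, Ifngr1, and no GTPase. Depth limits Iigp1, Irgm2 and the interferons, which had few counts.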

Other observations

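Several family genes with near-identical copies had few or no counts in the table. Gvin1 and Gm4070 had 0 counts in all 4 libraries, and 99.2% and 98.9% of the 50-base words of their longest transcripts occur in other annotated genes. Tgtp1 had 0 and 3 counts in the Aire-/- libraries, against 1 and 0 counts in the Aire+/+ libraries, with 91.4% of its words shared. The related Gm4759, with 2.51% shared, had 91 and 85 counts in the Aire-/- libraries, against 132 and 95 counts in the Aire+/+ libraries. Other genes went the other way. With 79.8% shared, 9930111J21Rik1 had 126 and 86 counts in the Aire-/- libraries, against 69 and 57 counts in the Aire+/+ libraries. Irgc1, with 0.0% shared, had 4 and 0 counts in the Aire-/- libraries, against 5 and 0 counts in the Aire+/+ libraries. How reads that match several genes were counted is not given in the sources used here, so 0 counts for these genes do not show that they were silent in the cells.

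Among transcripts high in a single library, Socs3, a brake on cytokine receptors, had 22 and 111 counts in the Aire-/- libraries, against 52 and 41 counts in the Aire+/+ libraries, and was picked after its values were seen.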
